A study of Drosophila melanogaster and Drosophila arizonae and Drosophila mojavensis with 18 samples.

Results

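The genes described here are the 105 genes of *D*. *mojavensis*, of 15180 in the deposited table, whose expression fell stepwise as sugar rose and protein dropped in the larval diet. They were chosen from measured values. In each library the deposited value of a gene was divided by the library total and multiplied by 1000000 (CPM), and log2(CPM + 1) was taken. A gene was kept when its mean CPM was at least 5, when the values were ordered HPLS over EPS over LPHS in replicate 1 and in replicate 2, and when LPHS was at least 0.7 below HPLS on this log2 scale in each replicate. This left 110 of the 7947 genes with enough CPM, and 5 of them (*Adh1*, *Adh2*, *Xdh*, GI23785 and GI23443) were set aside. The diet differences in *D*. *mojavensis* given below are therefore a description of the chosen genes, and none of them is tested.

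Larvae of *D*. *mojavensis*, a cactus-breeding fly, in the third instar had been kept for 24 h on high protein-low sugar food (HPLS), equal protein-sugar food (EPS) or low protein-high sugar food (LPHS), and RNA of whole larvae was sequenced. Per 200 ml of water the foods held 8, 20 and 32 g of sucrose and 32, 20 and 8 g of yeast in that order, so less protein and more sugar cannot be told apart. There were 2 replicates per diet, 6 libraries in all, and *D*. *melanogaster*, the generalist used here for comparison, had 6 libraries of the same design. The larvae came from isofemale strains, 2 for each species, with no transgene or drug, and no source used here tells if replicates 1 and 2 are these strains. Nor do they say that replicates were separate cultures, so the p-values below measure the spread between these libraries, which may be technical.

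Insect larvae build their reserves in the fat body, an organ that serves as liver and adipose tissue. It secretes hexamerins, storage proteins that fill the haemolymph before metamorphosis and are later broken down for their amino acids. The epidermis makes cuticle proteins at each moult, and gut, fat body and Malpighian tubules carry the cytochromes P450, UDP-glycosyltransferases and esterases that oxidise, conjugate and hydrolyse foreign and internal compounds. In RNA from whole larvae, fewer cells of a type and less RNA per cell cannot be told apart.

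The 6 *D*. *mojavensis* libraries held 6819502 to 9910492 fragments in genes. The falling genes covered a wide span of expression, with a mean CPM between 5.55 and 34367 and a median of 56.1, against a median of 27.3 over the 7947 genes with a mean CPM of at least 5. In 10 of them the mean CPM was at least 1000 and in 27 it was under 20. Together they made up 9.02 and 9.78% of all counts on HPLS in replicates 1 and 2, 7.07 and 5.85% on EPS, and 3.80 and 3.89% on LPHS. The mean of the LPHS-HPLS differences of both replicates ran from −3.94 to −0.73 with a median of −1.30, while the median of all genes with enough CPM was 0.14. It was below −2 in 12 genes, between −2 and −1 in 64 and above −1 in 29. The division by library totals matters for these values. With TMM scaling the median of all genes was −0.02, a shift of −0.16, and the median of the falling genes was −1.47.

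Of the 105 genes, 57 carry a name in a list of diet-responsive genes that the study drew from these same libraries. That list is therefore not independent evidence of their direction, and 4 of the named genes have no domain in it. It holds 89 genes as lower in higher sugar, of which these 57 met the rule, and the counts for single families below stand beside that share. The other 48 genes are known here only by FlyBase identifiers, which the sources used here do not pair with names. The libraries of LPHS and HPLS did not overlap in 98 of the 105 genes, and the libraries of all 3 diets were fully separated in 48. In the 7 genes whose LPHS and HPLS libraries overlapped, among them the tetraspanin gene GI20059, the HPLS library of one replicate lay below the LPHS library of the other. Over all genes with enough CPM these counts were 893 (11.2%) and 138 (1.74%), and since the rule used the same differences nothing is read from this contrast. For the same reason nothing is read from a test of it. By limma with the diet alone in the model 0 of the 105 genes passed in LPHS-HPLS, against 1 of all 9724 genes tested (0.0103%) that was lower. An unadjusted p under 0.05 by limma was found for 92 of the 105 and for 1000 of the 9724. By edgeR on the recovered fragments 0 of the 105 passed. There 90 of the 105 and 993 of all 9775 genes tested had an unadjusted p under 0.05. With the replicate number as a block, limma called 104 of the 105, and 3.00% of all genes were lower.

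**Figure D1:**
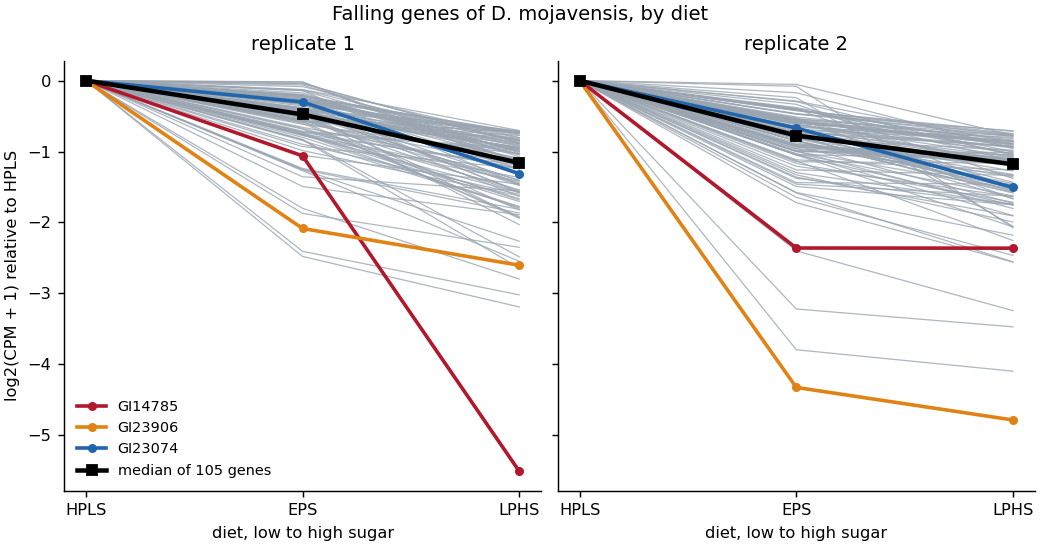
Log2(CPM + 1) of the 105 falling genes relative to the HPLS library of the same replicate (vertical axis, log2 units), by diet from low to high sugar, with replicate 1 on the left and replicate 2 on the right. Grey lines are single genes, the black line is the median, and 3 genes are coloured. The median lay at −0.48 on EPS and −1.16 on LPHS in replicate 1, and at −0.77 on EPS and −1.18 on LPHS in replicate 2.

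The most abundant falling gene by far was GI23074 (FBgn0145801), the ortholog of *Lsp1β*, which encodes a subunit of a larval serum protein of the hexamerin family. Its level was 47276 on HPLS, 38366 on EPS and 19051 CPM on LPHS in replicate 1, and 51248 on HPLS, 32238 on EPS and 18023 CPM on LPHS in replicate 2. The 4 values on HPLS and EPS all lay above the 2 on LPHS, and the replicates of a diet were closer to each other than the diets were. GI23074 alone took 4.73 and 5.13% of all counts on HPLS in replicates 1 and 2, 3.84 and 3.22% on EPS, and 1.91 and 1.80% on LPHS. The other 104 falling genes made up 4.30 and 4.66% on HPLS, 3.24 and 2.63% on EPS, and 1.90 and 2.08% on LPHS, so about equal parts of the sum came from this gene and from the rest. The other gene with a hemocyanin fold was GI19287, the ortholog of *PPO1*, the precursor of an enzyme that forms melanin at wounds and around parasites. It stood at 178 and 150.5 CPM on HPLS, 113 and 72.9 on EPS, and 74.7 and 39.5 on LPHS in replicates 1 and 2. Of the 4 genes of the hexamerin list that the study listed as lower in higher sugar, these 2 met the rule.

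Cuticle protein genes were the largest named group, and all 9 that the study listed as lower met the rule. Their mean falls lay between −2.23 and −1.35 log2 units. Their summed level was 12838 and 16498 CPM on HPLS in replicates 1 and 2, 9084 and 8060 CPM on EPS and 4174 and 6548 CPM on LPHS. The most abundant was GI20905 (FBgn0143639), one of 3 genes listed with *Lcp1* and *Lcp2* as orthologs, which encode larval cuticle proteins. It stood at 4707 on HPLS, 3157 on EPS and 1225 CPM on LPHS in replicate 1, and 7745 on HPLS, 3980.1 on EPS and 3595 CPM on LPHS in replicate 2, and its level on LPHS in replicate 2 was above its level on EPS in replicate 1. GI20904 was at 2530.2 and 3818 CPM on HPLS, 1729.6 and 1552 on EPS, and 846 and 1139.5 on LPHS in replicates 1 and 2, with no overlap between diets. The other copy, GI20903, stood at 211 and 402 CPM on HPLS, 87.9 and 194 on EPS, and 57.1 and 187 on LPHS, and its LPHS value in replicate 2 lay close to its HPLS value in replicate 1. Since these 3 genes share their named orthologs, reads may have been shared between them. Their sequences were not compared here, so their separate values are uncertain.

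Another abundant cuticle gene, GI19511, was at 3290.0 and 2995 CPM on HPLS, 2479 and 1627 on EPS, and 1059 and 1168 on LPHS in replicates 1 and 2. The largest fall of the group belonged to GI12694, the ortholog of the adult cuticle gene *Acp65Aa*, which was low in all libraries. It was at 8.42 on HPLS, 8.27 on EPS and 3.07 CPM on LPHS in replicate 1, and 30.6 on HPLS, 4.99 on EPS and 2.34 CPM on LPHS in replicate 2. In replicate 1 nearly all of its fall came between EPS and LPHS, and in replicate 2 most of it came between HPLS and EPS. GI19059 (ortholog *Cpr49Af*) fell by 1.68 log2 units and GI19542 (ortholog *Cpr60D*) by 1.50. The remaining 2, GI12994 and GI24737, are listed with the cuticle genes *Cpr67Fa1* and *Cpr67Fa2* and with *TwdlP*, of the Tweedle family of cuticle proteins. GI12405, a gene with a chitin binding domain, was low, with 8.53 and 22.1 CPM on HPLS, 6.86 and 12.3 on EPS, and 4.31 and 6.88 on LPHS in replicates 1 and 2. It was 1 of 4 genes of a chitin binding list, and the study listed the other 3 as higher. All 3 were higher on LPHS in both replicates, among them GI24570, with the same domain, by 2.17 and 2.06 log2 units. GI17398, the ortholog of *Vajk3*, was among the abundant falling genes with 2324 and 2152 CPM on HPLS, 1897 and 1409 on EPS, and 923 and 952 on LPHS.

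Of the 4 falling genes with the largest mean falls, 3 were CHK kinase-like genes, a large insect family related to the ecdysteroid kinase of the silkworm. Of the 7 that the study listed as lower, 6 met the rule, with mean falls between −3.70 and −1.25. GI23906 (FBgn0146631, ortholog *CG11892*) was at 142 on HPLS, 32.8 on EPS and 22.6 CPM on LPHS in replicate 1, and 45.6 on HPLS, 1.32 on EPS and 0.688 CPM on LPHS in replicate 2. GI23684 (FBgn0146410, ortholog *CG10514*) had a similar course, with 164 on HPLS, 30.1 on EPS and 19.3 CPM on LPHS in replicate 1, and 37.3 on HPLS, 1.76 on EPS and 1.24 CPM on LPHS in replicate 2. In GI23685 the values were 43.7 on HPLS, 16.4 on EPS and 14.2 CPM on LPHS in replicate 1, and 19.3 on HPLS, 1.17 on EPS and 0.825 CPM on LPHS in replicate 2. All 3 dropped mostly between HPLS and EPS and less after that. In each of them every library of replicate 2 was below the library of replicate 1 on the same diet, and the LPHS library of replicate 2 held fewer than 10 fragments, so its CPM is imprecise and the added 1 in log2(CPM + 1) shrinks the fall. The other 3, GI23912, GI23260 and GI16169, fell by 1.62, 1.43 and 1.25 log2 units.

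GI14785 (FBgn0137536), a gene with no domain in the annotation, had the largest mean fall of all, −3.94 log2 units. Its level was 49.7 on HPLS, 23.3 on EPS and 0.114 CPM on LPHS in replicate 1, and 191 on HPLS, 36.4 on EPS and 36.3 CPM on LPHS in replicate 2. The LPHS library of replicate 1 held a single fragment. The fall was −5.51 in replicate 1 and −2.36 in replicate 2, so the mean rests largely on that library. In replicate 2 EPS and LPHS were nearly equal. A similar pattern at low counts was seen in GI24446, the ortholog of *Npc2d*, a gene with the MD-2-related lipid-recognition domain found in sterol-binding proteins. It was at 10.2 on HPLS, 1.01 on EPS and 0.227 CPM on LPHS in replicate 1, and 31.1 on HPLS, 10.4 on EPS and 8.53 CPM on LPHS in replicate 2, with 2 fragments in the LPHS library of replicate 1. In all, 8 falling genes had a library with fewer than 10 fragments.

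The falling genes included 8 of detoxification enzymes, at moderate levels. Among the cytochromes P450, enzymes that oxidise foreign compounds, steroids and fatty acids, 4 of the 6 that the study listed as lower met the rule. GI20228 and GI20229 are both listed with *Cyp6a2* and may share reads. GI20228 was at 25.7 and 19.3 CPM on HPLS, 6.66 and 8.80 on EPS, and 2.84 and 3.85 on LPHS in replicates 1 and 2, and GI20229 at 55.1 and 50.0 CPM on HPLS, 22.5 and 29.8 on EPS, and 10.7 and 22.4 on LPHS. GI24740, the ortholog of *Cyp6d5*, was at 139 and 122 CPM on HPLS, 48.6 and 36.2 on EPS, and 36.7 and 19.8 on LPHS, with both HPLS values far above the others and the lowest EPS value just under the highest LPHS value. The last, GI18674 (ortholog *Cyp4d14*), fell by 1.32 log2 units. Of the UDP-glycosyltransferases, which attach sugars to small molecules, GI17523 was at 100.5 and 44.5 CPM on HPLS, 41.1 and 19.8 on EPS, and 16.3 and 8.53 on LPHS and lost a similar share of its level at each step in both replicates. GI22628 fell by 1.38 log2 units. These were 2 of the 3 listed as lower. GI20943, the third, was instead 1.09 and 1.64 log2 units higher on LPHS in replicates 1 and 2, and GI20954, listed as higher, was 1.96 and 2.70 higher. Both carboxylesterase genes that were listed as lower met the rule. GI22476, listed with *Est-6* and *Est-P*, was at 446 and 279 CPM on HPLS, 248 and 155 on EPS, and 129 and 97.4 on LPHS, and GI24124 (ortholog *α-Est2*) at 15.4 and 48.4 CPM on HPLS, 12.3 and 21.0 on EPS, and 7.61 and 14.0 on LPHS. GI10121, a carboxylesterase gene listed as higher, was higher on LPHS in both replicates.

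**Figure D2:**
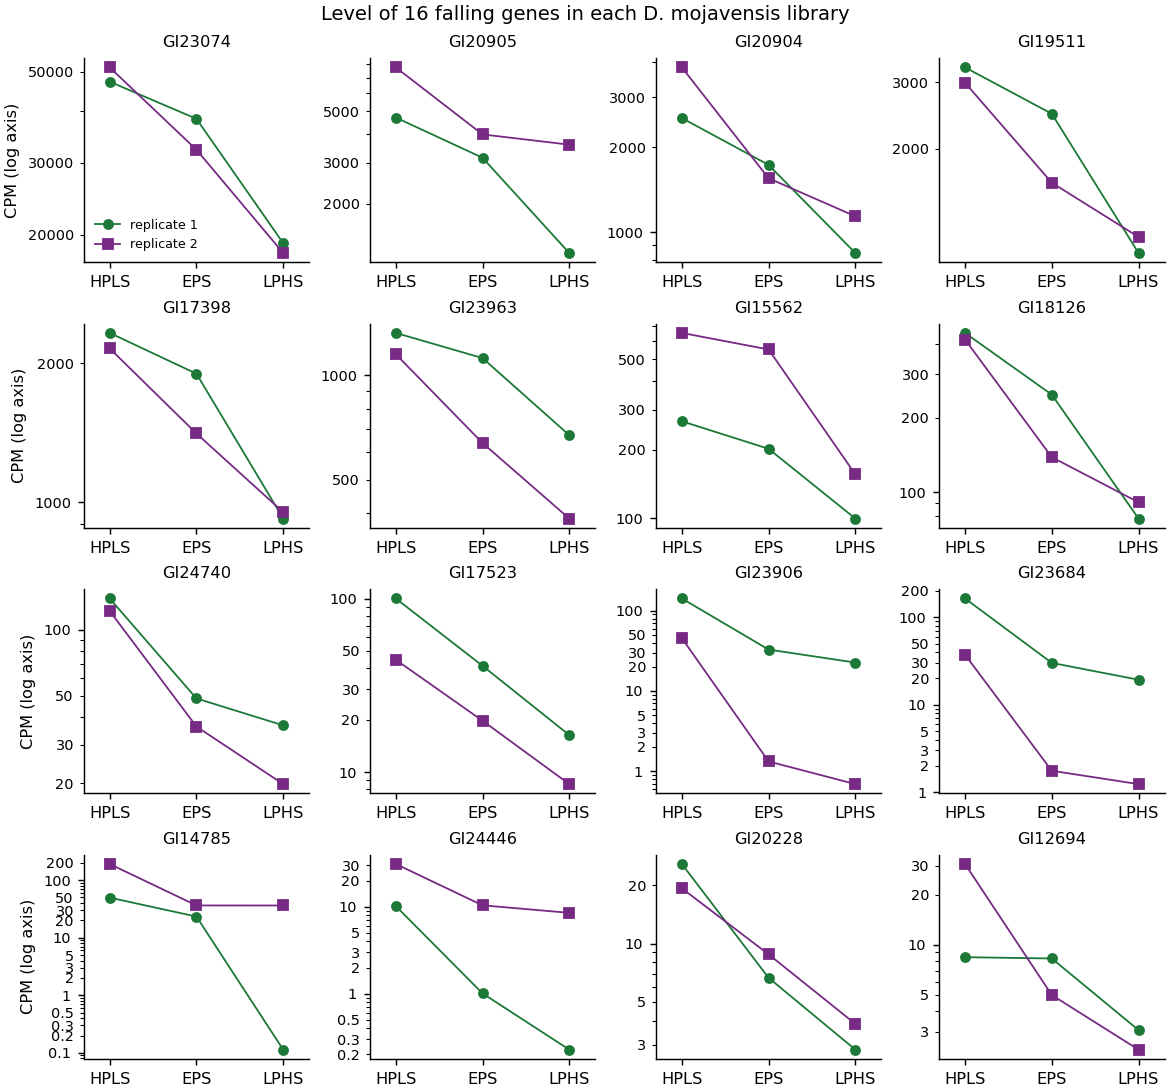
CPM (vertical axis, log scale, a scale of its own in each panel) of 16 falling genes by diet from low to high sugar, with green circles for replicate 1 and purple squares for replicate 2, 1 library per point. GI23074 shows nearly the same level in both replicates, while GI23906 and GI23684 were lower in replicate 2 on every diet and GI15562 and GI24446 higher.

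All 6 genes that a list of acyl-CoA and fatty acid enzymes took from the study's lower genes met the rule, but they differ in what they do. GI18126 and GI17517 encode N-acyltransferases, which move an acyl group from acyl-CoA to an amine and are not part of fatty acid oxidation. GI18126 (FBgn0140866) was at 442 on HPLS, 248 on EPS and 78.1 CPM on LPHS in replicate 1, and 416 on HPLS, 139 on EPS and 90.9 CPM on LPHS in replicate 2. GI21292 and GI18904 carry the AMP-binding domain of enzymes that activate acids as acyl-CoA, the step that prepares fatty acids for use. GI21292 stood at 68.6 and 28.6 CPM on HPLS, 34.1 and 18.9 on EPS, and 21.6 and 9.22 on LPHS in replicates 1 and 2. GI18904 stood at 437 and 194 CPM on HPLS, 185 and 120.1 on EPS, and 124 and 107 on LPHS. Peroxisomal and mitochondrial β-oxidation were represented by 1 gene each. GI19075, the ortholog of the acyl-CoA oxidase gene *Acox57D-d*, was at 200.2 and 116 CPM on HPLS, 115 and 78.0 on EPS, and 57.8 and 50.8 on LPHS, and the enoyl-CoA isomerase gene GI17724 fell by 1.14 log2 units. GI14601, with a fatty acid hydroxylase domain, was at 119 and 104 CPM on HPLS, 87.8 and 32.6 on EPS, and 42.0 and 18.0 on LPHS. The vanin-like amidohydrolases GI16171 and GI16172, which share their named orthologs, fell by 1.67 and 1.55 log2 units.

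Single genes of other pathways fell with them. Sugar breakdown was represented by GI19942, the ortholog of the hexokinase gene *Hex-C*, whose product phosphorylates glucose on entry into glycolysis, and by *Mal-A5*, a maltase. GI19942 was at 19.8 and 11.1 CPM on HPLS, 11.3 and 3.67 on EPS, and 8.06 and 2.61 on LPHS in replicates 1 and 2. *Mal-A5* was at 88.8 and 167 CPM on HPLS, 77.0 and 60.1 on EPS, and 43.8 and 53.4 on LPHS, and in replicate 2 most of its fall came before EPS. In purine breakdown, the purine nucleoside phosphorylase gene GI12534 was at 203 and 206 CPM on HPLS, 161 and 122 on EPS, and 93.1 and 73.3 on LPHS. GI10152, the ortholog of the aldehyde oxidase gene *AOX2* and annotated as a xanthine dehydrogenase/oxidase, was at 15.9 and 8.74 CPM on HPLS, 8.98 and 4.55 on EPS, and 5.56 and 2.89 on LPHS. Of the machinery that brings secreted proteins into the endoplasmic reticulum, GI20777, the ortholog of the translocon subunit gene *Sec61β*, was at 194 and 175 CPM on HPLS, 138 and 87.1 on EPS, and 101 and 60.1 on LPHS. The calreticulin gene GI23963, a chaperone of glycoproteins, was at 1326 and 1151 CPM on HPLS, 1122 and 638 on EPS, and 672 and 386 on LPHS.

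GI15562, a short-chain dehydrogenase, is 1 of 4 falling genes that the study also assayed by RT-qPCR, with GI23906, GI20777 and GI23074, and those assays were not analysed here. It was at 267 on HPLS, 202 on EPS and 99.9 CPM on LPHS in replicate 1, and 651 on HPLS, 551 on EPS and 156 CPM on LPHS in replicate 2, higher in replicate 2 on every diet. The actin gene GI24339, listed with *Act87E*, *Act57B* and *Act88F*, was at 839 and 334 CPM on HPLS, 522 and 144 on EPS, and 260.2 and 107 on LPHS in replicates 1 and 2, and may share reads with other actin genes. GI19595, an actin gene that the study listed as higher, was instead 1.25 and 1.63 log2 units higher on LPHS. The copper importer gene GI24869 (ortholog *Ctr1B*) was at 317 and 110.4 CPM on HPLS, 233 and 74.8 on EPS, and 82.4 and 56.5 on LPHS, and the organic anion transporter gene GI19616 fell by 1.19 log2 units. Of the 5 membrane transporter genes that the study listed as lower, these 2 met the rule. Another 4 were listed as higher, and all 4 were higher on LPHS in both replicates. Protease inhibitors were represented by the Kazal domain gene GI24784, which fell by 2.20, and the Kunitz domain gene GI17762, which fell by 1.35. The phosphatase genes GI12980 and GI17447 fell by 1.84 and 1.58, the first of them at a mean CPM of 6.39. The lysosomal nuclease gene *DNaseII* (GI23709) was at 279 and 511 CPM on HPLS, 229 and 270.4 on EPS, and 151 and 153 on LPHS, and the neprilysin-like peptidase gene GI17503 fell by 1.26 log2 units. In contrast, 5 protease genes that the study listed as higher were higher on LPHS in both replicates.

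The 48 unnamed genes had mean falls between −2.05 and −0.73, and the 57 named ones between −3.94 and −1.14. The steepest unnamed gene was FBgn0135749, at 46.3 on HPLS, 32.9 on EPS and 10.6 CPM on LPHS in replicate 1, and 6.10 on HPLS, 5.72 on EPS and 0.688 CPM on LPHS in replicate 2, so its HPLS value in replicate 2 was below its LPHS value in replicate 1. The most abundant was FBgn0135452, at 6765 on HPLS, 5826 on EPS and 3801 CPM on LPHS in replicate 1, and 6961 on HPLS, 4408 on EPS and 3996 CPM on LPHS in replicate 2. Other unnamed genes were also among the 10 falling genes with a mean CPM of at least 1000, and their values are not given here. At the edge of the rule, the 3 genes just inside the limit on the fall had a weaker fall of −0.71, −0.71 and −0.70, and the 3 just outside −0.69, −0.69 and −0.69. The 3 genes just inside the limit on expression had a mean CPM of 5.55, 5.96 and 6.39, and the 3 just outside 4.24, 3.43 and 3.32.

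The point at which the genes fell differed between replicates. The share of the HPLS to LPHS fall that was reached on EPS had a median of 40.6% in replicate 1 and 64.8% in replicate 2, and was larger in replicate 2 in 84 of the 105 genes (80.0%). Among the 355 other genes with enough CPM that fell in the same order in both replicates, it was larger in replicate 2 in 242 (68.2%), with medians of 41.3 and 58.1%. The earlier fall in replicate 2 was thus also seen outside the chosen genes, and since each diet has 1 library per replicate, it cannot be told apart from the level of a single EPS library. All 9 cuticle genes had the larger share in replicate 2, with medians of 31.4% in replicate 1 and 74.5% in replicate 2. The CHK kinase-like genes had medians of 77.3 and 78.5%, but they differed widely among themselves.

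Averaged over replicates, the largest shares were those of GI23685 (87.2% and 92.8% in replicates 1 and 2), GI23684 (79.7% and 92.6%) and GI23906 (80.1% and 90.4%). In replicate 2 these genes were at 1.17 to 1.76 CPM on EPS and 0.688 to 1.24 CPM on LPHS. At such levels the added 1 in log2(CPM + 1) shrinks the last step, which raises the share, and few fragments make it imprecise. The smallest shares were those of FBgn0135749 (23.6% and 3.88%), another unnamed gene, and GI15562 (28.4% and 11.7%). For GI15562 the fall thus came mostly between EPS and LPHS in both replicates. Among the CHK kinase-like genes GI16169 was like it (33.2% and 28.1%), GI23260 had 38.8% and 56.3%, and GI23912, with 75.0% and 66.6%, fell mostly before EPS.

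**Figure D3:**
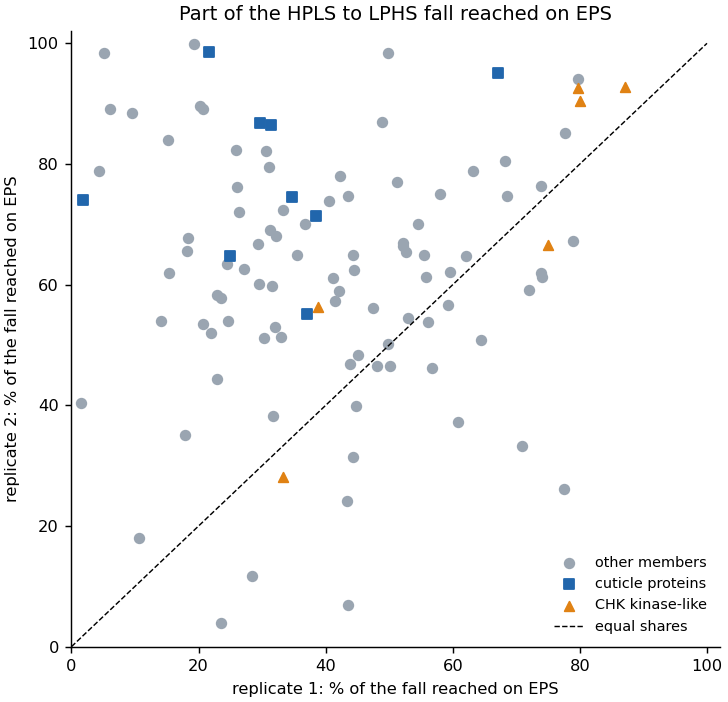
Share of the HPLS to LPHS fall in log2(CPM + 1) that was reached on EPS, in percent, in replicate 1 (horizontal axis) and replicate 2 (vertical axis), 1 point per falling gene. Blue squares are cuticle protein genes, orange triangles CHK kinase-like genes and grey circles the other falling genes. Of the 105 points, 84 lie above the dashed line of equal shares.

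The level of the genes in replicate 2 relative to replicate 1, averaged over diets, did not enter the rule and was tested with limma on TMM-scaled values, with the diet in the model. The median absolute difference between replicates was 0.53 log2 units over the falling genes, against 0.24 over all 9724 genes tested. After Benjamini-Hochberg adjustment over all of these genes, 52 of the 105 differed between replicates, 16 higher and 36 lower in replicate 2. Over all genes 1288 (13.2%) did, 599 (6.16%) higher and 689 (7.09%) lower. The counts cannot be set against this background, because genes that fell alike in both replicates were chosen, which lowers the residual spread in this fit. Without the EPS library of replicate 1 the count was 31 of the 105 falling genes, with the same limit. The matching count over all genes without that library is not given here, so nothing is read from the change. The lower residual spread also enters the SE and p-values of the single genes and families below, which may therefore be too small.

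Of the 6 CHK kinase-like genes, 5 passed the test as lower in replicate 2, a count with the limit given above. For GI23906 the levels were 0.69 to 45.6 CPM in replicate 2 and 22.6 to 142 CPM in replicate 1, and the difference was −3.68 ± 0.54 (SE) log2 units, with an adjusted p of 0.00903 by limma. GI23684 differed by −3.35 ± 0.34 (SE) with an adjusted p of 0.00261 by limma, and GI23685 by −2.95 ± 0.48 (SE) with 0.0117. The exception was GI23912, with a difference of −0.02 and an adjusted p of 0.946 by limma. The largest unnamed difference was that of FBgn0135749 (−3.07 ± 0.23 (SE), adjusted p = 0.00107 by limma).

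In the other direction, GI24446 (ortholog *Npc2d*) was higher in replicate 2 by 3.11 ± 0.49 (SE) log2 units, with an adjusted p of 0.0110 by limma. GI14785 was higher in replicate 2 on every diet, with 3.24 ± 1.07 (SE), but did not pass (adjusted p = 0.0886 by limma). Without the LPHS library of replicate 1, which held that single fragment, its difference was 1.25 with an adjusted p of 0.000926 by limma, and over all alternatives its adjusted p ran from 0.000902 to 0.330. Cuticle genes were split, with GI20903 and GI20905 higher in replicate 2 by 1.23 and 0.84, GI24737 and GI12994 lower with −1.21 and −1.02, and the other 5 not passing the test. None of the 4 cytochrome P450 genes passed, with adjusted p-values of 0.0562 to 0.763 by limma. Both endoplasmic reticulum genes and both transporter genes were lower in replicate 2, as were the actin gene GI24339 (−1.52) and GI19942 (−1.36).

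**Figure D4:**
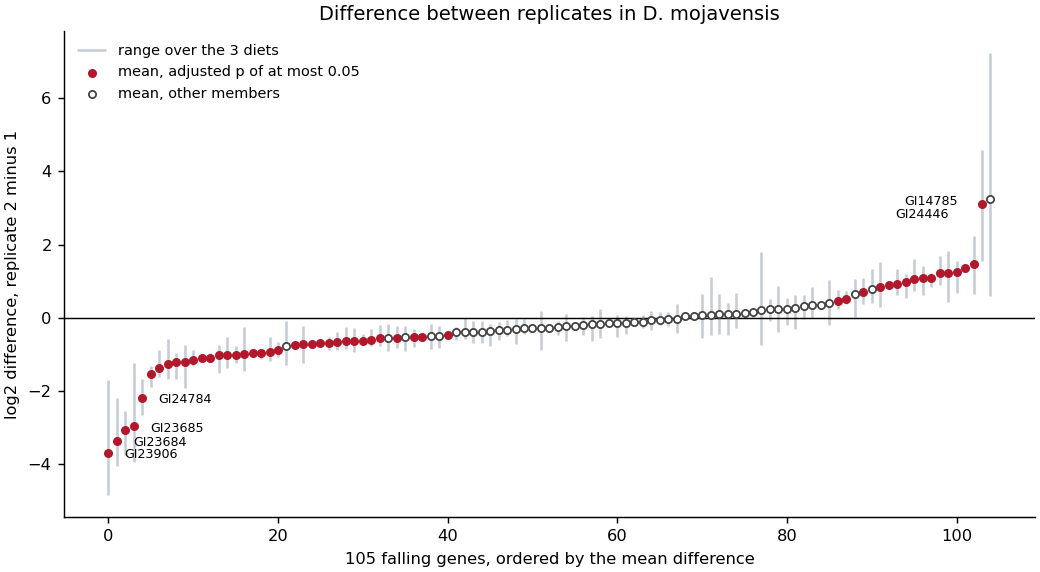
Difference in log2 level between replicate 2 and replicate 1 (vertical axis, log2 units) for the 105 falling genes, ordered by the mean over diets. Points are means over the 3 diets, filled in red at an adjusted p of at most 0.05 by limma, and grey bars span the 3 diets. There are 36 red points below 0 and 16 above.

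Whether the orthologs of the falling genes also fell was tested in *D*. *melanogaster*, whose libraries did not enter the rule. The study's table of orthologs names one or more for 48 of the 105 genes. The ortholog of the calreticulin gene GI23963 was left out because its name and identifier there point to different genes, and 50 orthologs of 45 genes were found in the deposited table. Of these, 48 orthologs of 44 genes were expressed enough to be tested, and *CG18088* and *Act88F* were not. Values are deposited values scaled by TMM and called normalized counts, and differences are on the log2(value + 1) scale.

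In *D*. *melanogaster* 0 of the 48 orthologs were differentially expressed in LPHS-HPLS by limma, as were 0 of all 12324 genes tested (0%). The smallest adjusted p by limma was 1.00. Without adjustment 1 ortholog (2.08%) had a p under 0.05, against 182 (1.48%) of all genes, and it was higher on LPHS. With the replicate number as a block, 0 of the 48 orthologs and 0 of all 12324 genes were called. The smallest adjusted p of an ortholog was then 0.318 by limma. The median difference was 0.036 log2 units over the orthologs and 0.0024 over all genes. In both replicates, 8 orthologs (16.7%) were lower on LPHS and 13 (27.1%) were higher, against 26.3 and 27.4% of all genes. The other 27 went opposite ways in the replicates. Among them was *Lsp1β*, whose direction in replicate 2 rests on a value of 0 in the HPLS library. Without *Lsp1β* the median difference over the orthologs was 0.020. A stepwise order from HPLS over EPS to LPHS in both replicates was found for 1 ortholog (2.08%), *Lcp2*, and for 4.86% of all genes. A fall of at least 0.7 in both replicates was seen in 2 orthologs (4.17%), *Tsp42Ep* and *Lcp1*, and in 1.29% of all genes. The rule also used 0.7, but on CPM by library totals and with a CPM minimum, so the limits are not the same. The difference in response between the species was not tested, since the rule fixed the direction in *D*. *mojavensis*.

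Among the larval cuticle genes, *Lcp1* had 44274 and 85198 normalized counts on LPHS, against 86911 and 312878 on HPLS in replicates 1 and 2, a difference of −1.42 ± 1.04 (SE). *Lcp2* had 64363 and 50677 normalized counts on LPHS, against 87487 and 141805 on HPLS, a difference of −0.96 ± 0.41 (SE) with an adjusted p of 1.00 by limma. Both were lower on LPHS in each replicate, but within a diet the replicates of *Lcp1* differed as much as the diets did. The lowest difference was that of the tetraspanin gene *Tsp42Ep*, with 202 and 258 normalized counts on LPHS, against 409 and 1516 on HPLS and a difference of −1.78 ± 1.70 (SE). *Cyp6d5* had 3008 and 3600.1 normalized counts on LPHS, against 3968 and 7098 on HPLS in replicates 1 and 2, a difference of −0.69 ± 0.33 (SE). These 4 were among the 8 orthologs lower on LPHS in both replicates, and none of them passed the test.

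Orthologs of the steepest falling genes were mixed in *D*. *melanogaster*, and none of them passed the test. *CG11892*, the ortholog of GI23906, had 3663 and 6383 normalized counts on LPHS, against 2773 and 5857 on HPLS in replicates 1 and 2, a difference of 0.26 ± 0.58 (SE). *CG10514*, the ortholog of GI23684, had 1971 and 4297 normalized counts on LPHS, against 1731 and 3895 on HPLS, a difference of 0.16 ± 0.65 (SE). Of the 3 orthologs listed for GI23685, *CG11878* was higher on LPHS in both replicates, with a difference of 0.95 ± 0.60 (SE). The other two went opposite ways in the replicates, *CG11891* with 0.06 in replicate 1 and −0.89 in replicate 2 and *CG11889* with 0.33 in replicate 1 and −0.07 in replicate 2. *Npc2d*, the ortholog of GI24446, had 2674 and 2695 normalized counts on LPHS, against 2321 and 1373 on HPLS in replicates 1 and 2, a difference of 0.59 ± 0.28 (SE). *Cyp6a2*, listed for GI20228 and GI20229, differed by −0.08 in replicate 1 and 0.90 in replicate 2. The smallest unadjusted p was that of *vanin-like*, listed for GI16171 and GI16172, with 3650.0 and 4735 normalized counts on LPHS, against 1543 and 2336 on HPLS in replicates 1 and 2. Its difference was 1.13 ± 0.27 (SE) with an adjusted p of 1.00 by limma, and it was higher on LPHS in both replicates.

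*Lsp1β* was listed at 0 in the HPLS library of replicate 2 in *D*. *melanogaster*, so no fold change is given for it. Its other values were 434703 normalized counts on HPLS in replicate 1, 434477 and 396261 on EPS in replicates 1 and 2, and 424812 and 528573 on LPHS. In the libraries of replicate 1 the level was nearly the same on all 3 diets. *Sec61β* had 8612 and 7965 normalized counts on LPHS, against 9782 and 7559 on HPLS in replicates 1 and 2, with a difference of −0.05 ± 0.23 (SE). *Hex-C* had 285 and 227 normalized counts on LPHS, against 358 and 41.3 on HPLS, lower on LPHS in replicate 1 and higher in replicate 2.

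**Figure D5:**
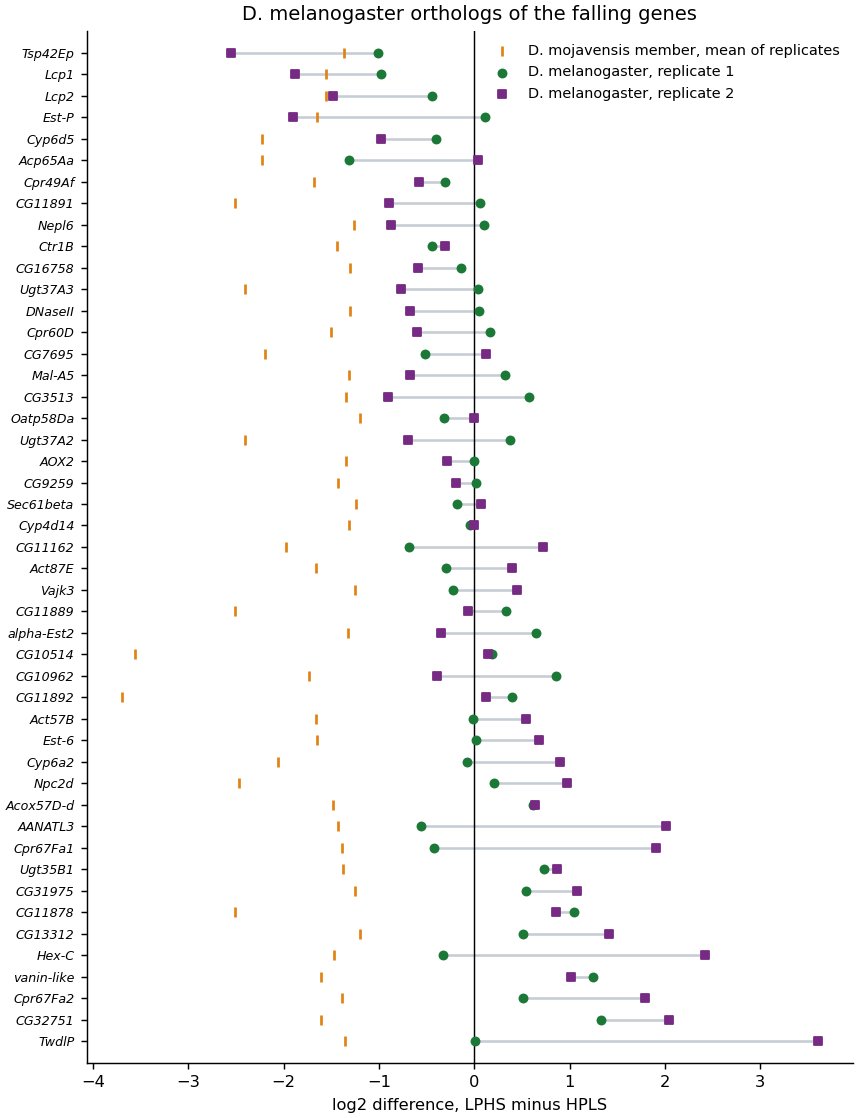
Difference between LPHS and HPLS in log2 units (horizontal axis) for 47 *D*. *melanogaster* orthologs, *Lsp1β* left out, with an orange bar for the mean fall of the *D*. *mojavensis* genes they are listed for (by library totals), a green circle for replicate 1 and a purple square for replicate 2 of *D*. *melanogaster*, and a grey line between the replicates. All orange bars lie below −1, while the *D*. *melanogaster* points lie on both sides of 0.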

How the data were processed

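Libraries were from RNA of whole larvae kept for 24 h on 3 diets, with 2 replicates per diet and species, and samples were grouped by the species and diet in their titles. The authors mapped read pairs with Bowtie2 and TopHat2 to the genome of each species and counted fragments per gene with Cuffdiff. The deposited signal values are scaled fragment counts, for genes only. In *D*. *mojavensis* the scaling was 1 factor per library, since 100.0% of values above 0 were whole multiples of a step within 0.01 steps, which gave back 6819502 to 9910492 fragments per library. In *D*. *melanogaster* they were not all whole multiples, and the deposited totals were 15223986 to 22042870. Few fragments limit the precision of low genes, and 2 libraries per diet that of the others. The *D*. *arizonae* table was not used, since its identifiers are not paired with *D*. *mojavensis* genes in the sources used here.

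The rule in the report chose the genes. The genes and the gene lists were chosen with earlier results of these data known. Names and orthologs came from the study's supplementary tables, and gene lists from keywords in those annotations. The report names up to 4 genes per list with the largest fall and the 10 with the largest fall. It also names the 5 with the largest difference between replicates and those assayed by RT-qPCR. The 10 with the highest CPM and those with the 3 largest and 3 smallest shares reached on EPS were chosen too. Not all unnamed genes among these are given. Outside these criteria, GI19542, GI20903, GI12994, GI24737, GI23260, GI16169, GI18904, GI17724, GI20059 and GI23709, and the genes listed but not falling, were named after their values were seen. Of unnamed genes 2 are given by identifier.

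Tests used limma 3.58.1 (edgeR 4.0.16, R 4.3.3), with trend, on log2 of the TMM-scaled value plus a pseudocount of 1, for genes kept by filterByExpr with a minimum count of 10. The tests were two-sided, with Benjamini-Hochberg adjustment over all genes kept and a threshold of 0.05. LPHS-HPLS was fitted with the 3 diets of a species, and replicate 2 minus replicate 1 with the diet in the model. A test on counts had been planned for whole counts and was replaced because the deposited values are not counts. The fits were tested on simulated data. For the diet fits the simulated libraries shared no difference between replicate numbers, unlike the libraries here. They therefore do not show how well these fits detect changes in these data. Alternatives changed the scaling, the pseudocount, the filter, the limits of the rule, the model and the test, and left out single libraries. In *D*. *melanogaster* only HPLS and LPHS libraries were left out, and the test was not changed.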

Additional observations from a re-analysis of the deposited data

Results flagged for a closer look

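In 13 of the 48 *D*. *melanogaster* orthologs tested, LPHS was above HPLS in both replicates, while the *D*. *mojavensis* genes they are listed for fell in both by rule. The difference between the species was not tested, 27.4% of all *D*. *melanogaster* genes were likewise higher in both replicates, and none of the 13 passed the test. The log2 differences in *D*. *melanogaster* were 1.80 for *TwdlP* and 1.15 for *Cpr67Fa2*, both cuticle genes, and 1.69 for *CG32751* and 1.13 for *vanin-like*, both of the vanin-like amidohydrolases. For *TwdlP* the differences were 0.00 in replicate 1 and 3.60 in replicate 2, so the value rests on replicate 2.

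Of the 7 CHK kinase-like orthologs tested, 4 were among the 13, with differences of 0.95 ± 0.60 (SE) for *CG11878*, 0.81 ± 0.75 (SE) for *CG31975*, 0.26 ± 0.58 (SE) for *CG11892* and 0.16 ± 0.65 (SE) for *CG10514*. The other 3 went opposite ways in the replicates, with differences of −0.42 ± 0.34 (SE) for *CG11891*, −0.09 ± 0.49 (SE) for *CG9259* and 0.13 ± 0.65 (SE) for *CG11889*. Of the metabolic enzymes, *Ugt35B1* had a difference of 0.80 ± 0.59 (SE), *Acox57D-d* of 0.62 ± 0.67 (SE) and *Est-6* of 0.35 ± 1.25 (SE). The lipid-recognition gene *Npc2d* had 0.59 ± 0.28 (SE), and *CG13312*, the ortholog of the chitin binding gene GI12405, had 0.96 ± 0.52 (SE). Over the alternatives, single libraries left out included, these values ranged widely, from 0.12 to 1.47 for *Ugt35B1*, 0.09 to 1.15 for *Acox57D-d*, 0.08 to 1.53 for *CG31975*, 0.27 to 1.64 for *CG13312* and 0.20 to 0.97 for *Npc2d*.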

How the results depend on the processing

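The rule chose 105 genes as given. It chose 167 with TMM-scaled CPM and 167 with a fall of at least 0.5, and both sets held all 105. A fall of at least 1 chose 56 genes, and the rule in a single replicate 190 (replicate 1) or 342 (replicate 2). The other settings of the rule gave 85 to 133. In *D*. *melanogaster* the count of orthologs called was 0 in all fits but the one without HPLS replicate 1, where 1 was called. This was *Lsp1β*, whose HPLS level then rests on the library that lists it at 0. Tests on counts (edgeR and DESeq2) were not run in *D*. *melanogaster*, since its values are not counts.

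The count of genes that differed between replicates was 49 to 53 under other scalings, pseudocounts, filters and the edgeR test, 31 to 61 without single libraries and lowest, 31, without EPS replicate 1. With the replicate number alone in the model it was 0, because the diet differences then enter the residual. All of these are counts among the falling genes. The matching counts over all genes are not given here for these alternatives. A shift in the count can therefore not be told apart from a shift over the whole table. Of the 7 differences between replicates followed singly, 6 passed in the report, and each of these missed the threshold with the replicate number alone.

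Libraries with the same replicate number deviated together from their diet means, with correlations across genes of 0.518 to 0.702 in *D*. *mojavensis* and 0.548 to 0.708 in *D*. *melanogaster*. With the replicate number as a block, 0 of the 48 orthologs and 0 of all 12324 genes were called in *D*. *melanogaster*. Without adjustment 5 lower and 8 higher orthologs had a p under 0.05 by limma with this block. The matching count over all genes is not given here, so nothing is read from these orthologs. In *D*. *mojavensis* LPHS-HPLS called 2 of 9724 genes without the block and 544 with it. The edgeR test called 0 of 9775, where 993 had an unadjusted p under 0.05. Of the 105 falling genes 0, 104 and 0 were among them, beside 3.00% of all genes that were lower with the block, and nothing is read from these counts because the rule used this contrast.

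With 2 libraries per diet, differences within the spread of replicates were not detectable, and 8 falling genes with a library under 10 fragments have imprecise falls. What the replicate number stands for was not given in the sources used here.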
